A study of Homo sapiens with 4 samples.

Results

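Clone 1 of the NOS2KO SUM159 cells was compared with clones 5 and 6, the other NOS2KO clones of the same experiment, across all genes. The members of the comparison were chosen by the clone number in the sample labels, and they make up 3 of the 4 libraries. The 4th library, from parental SUM159 cells, served only to tell which side of a difference was close to the starting cell line. SUM159 is a triple-negative breast cancer cell line of metaplastic type. All 3 clones carry the same genotype label, NOS2KO, and came from SUM159 cells that received a double nickase plasmid against NOS2, followed by puromycin. The choice of clones rested on iNOS, the protein of NOS2, measured on blots, and on nitrite and nitrate, the stable products of nitric oxide. The parental control carries no edit in its label. Each is a single clone with 1 library, so a difference between clones and a difference between libraries cannot be told apart.

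NOS2, the gene targeted in every clone, gave few counts. Parental cells had 2, clone 1 had 3, the library labelled clone 5 had 18 and clone 6 had 1. NOS2 mRNA therefore did not check the labels, and the highest count stood under the label of clone 5, so values of that library are given below by its label. The libraries held between 90467395 and 122171287 counts on genes, the highest in clone 1, and 3 counts corresponded to 0.0262 to 0.0332 CPM (counts scaled by TMM to a common library size). Of 14 markers of blood cells, MS4A1 and HBA1 had 3 counts or fewer in every library, and the list summed to 18.4 CPM in parental cells and to 55.3 to 118.0 CPM in the clones, with 71.3 in clone 1. Most of that sum in the clones was PTPRC, which encodes CD45, at 68.4, 105.4 and 41.7 CPM against 4.45 in parental cells. The 10 endothelial markers summed to 19.7 to 28 CPM. Of the 14 luminal and hormone receptor markers, PGR and TFF1 had 3 counts or fewer in every library, CDH1 was at most 0.413 CPM and EPCAM at most 0.284 CPM, and the list summed to 919.7 to 1606.6 CPM. In contrast, 7 of the 14 reached 10 CPM in a clone. Among these were MUC1, at 16.3 CPM in clone 1, and FOXA1, at 24.1 CPM under the clone 5 label. The part that the blood, endothelial and luminal markers play in the differences below was not tested.

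iNOS makes nitric oxide from arginine, and in tumour cells it is tied to inflammatory transcription through NF-kappaB and AP-1. Proliferating cells switch on mitotic regulators late in the cell cycle, and sterol, glycolytic and matrix genes follow programmes of their own. A total of 10386 genes reached 10 CPM in a clone, of which 513 (4.94%) were higher in clone 1 than in both other clones by over 1 on the log2 scale, and 589 (5.67%) were lower than in both. Together these 1102 genes make up 10.6% of the genes. The higher genes included mitotic regulators, enzymes of cholesterol synthesis, glycolytic and hypoxia-induced genes and immediate-early genes. The lower genes included collagens and other matrix genes, growth factor binding proteins and 15 zinc finger genes on chromosome 19. In 1044 of the 1102 genes the gap from clone 1 to the nearer of the other clones was wider than the gap between clones 5 and 6. The choice of genes by a gap over 1 to both clones favours this count. The same share over all genes was not computed, so no conclusion is drawn from it. Protein-coding genes made up 486 of the higher and 552 of the lower genes.

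**Figure D1:**
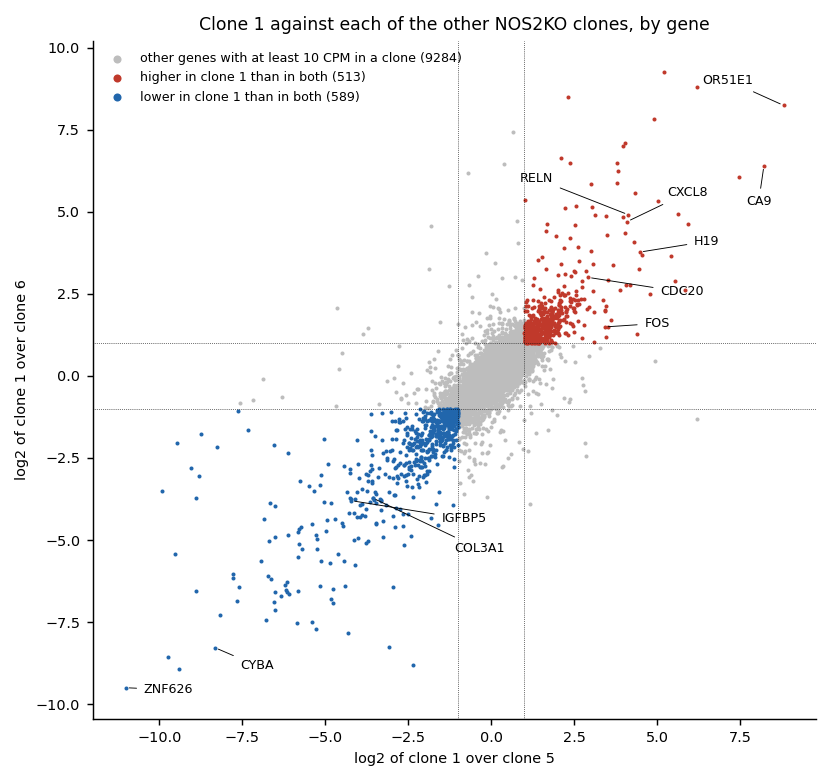
Log2 ratio of clone 1 to clone 5 (x axis) and to clone 6 (y axis) for 10386 genes, 1 point per gene, with dotted lines at a log2 ratio of 1 in either direction. Red points are the 513 genes higher in clone 1 than in both, and blue points the 589 lower genes. Both axes share the clone 1 library, so a slope along the diagonal is built into the plot.

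Clones 5 and 6 were then set as a group against clone 1 in edgeR's quasi-likelihood test, in which their spread also stands for that of clone 1. They were grouped with their likeness already known, so the p-values are too small and serve as a description. No gene had an adjusted p under 0.05 among 22511 tested, and the smallest adjusted p of edgeR was 0.136. At an unadjusted p under 0.05 edgeR gave 1761 higher genes (7.82%) and 2051 lower genes (9.11%), and 1057 of the 1102 genes past the fold were among them. Both lists come from the same 3 libraries and the same contrast, so this overlap is not separate evidence. DESeq2's Wald test gave 832 higher (4.59%) and 1269 lower genes (7.0%) at an adjusted p under 0.05 out of 18137. The smallest two-sided p of an exact permutation over these 3 libraries is 0.333. The direction split moved with the scaling, since with plain library size 380 genes were higher and 729 lower. TMM scaling left the median gene 0.12 higher in clone 1 on the log2 scale, RLE 0.14, upper quartile 0.04 and library size -0.01. Log2 fold changes below are those of edgeR, with the standard error (SE) of the fit, and none of the genes named had an adjusted p under 0.05 in edgeR. Where 2 values close a sentence without a name, the first is that of the clone 5 label and the second that of clone 6.

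The level in parental cells divided the genes past the fold. On 330 genes both clones 5 and 6 lay within 1 of the parental level on the log2 scale while clone 1 did not, and 206 of these were higher and 124 lower in clone 1. On 232 genes clone 1 alone lay within 1 of the parental level, and here 171 were lower and 61 higher in clone 1. For the higher genes the more frequent pattern was thus that clone 1 had moved away from the parental level, and for the lower genes that clones 5 and 6 had. With a log2 ratio over 2 the order of the totals turned, with clone 1 alone near the parental level on 80 genes and clones 5 and 6 on 59. On 84 genes the parental level lay between the sides, over 1 from each. Clone 1 and at least 1 of the other clones were both near it on 196 genes, only 1 of clones 5 and 6 on 119 genes. The fold limit itself cut through a continuum. DNMT3A, a DNA methyltransferase, lay just inside with 13.4 CPM in clone 1 against 26.8 and 27.4 in the others, and KIFC2, a kinesin, just outside with 14 CPM against 31.6 and 27.9.

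The gene furthest above both clones was OR51E1 (ENSG00000180785, chromosome 11 of GRCh38 from 4643420 to 4655488), an olfactory receptor gene that is also expressed in prostate. It had 1220 counts in clone 1, 5 in parental cells, 2 under the clone 5 label and 3 in clone 6. The log2 ratio was 9.15 to the clone 5 label (exact 95% interval 7.29 to 12.19) and 8.45 to clone 6 (6.9 to 10.73), intervals that cover counting error only. CA9 (ENSG00000107159, chromosome 9 from 35673856 to 35681159), the hypoxia-induced carbonic anhydrase of the cell surface, had 1.6 CPM in parental cells, 65.7 in clone 1, 0.216 under the clone 5 label and 0.771 in clone 6. Its log2 fold change was 7.06 (SE 0.74), and clone 1 was the library that stood apart, with the parental level between the sides.

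PCSK2, a prohormone convertase, had 15.6 CPM in clone 1 and at most 0.575 in the other libraries. ACTBL2, an actin-like gene, had 12.8 CPM in clone 1 against 0.188 in parental cells, 0.385 and 0.314. MYO5B, a myosin of vesicle transport, had 22.4 CPM in clone 1, 4.34 in parental cells, 1.09 and 0.467. In these 3 genes clone 1 was the highest library, and parental cells and clones 5 and 6 were all far below it. AOX1, an aldehyde oxidase, had 37.5 CPM in clone 1 and 22.1 in parental cells but 0.75 and 1.24 in the others (log2 fold change 5.24, SE 0.41). RELN, which encodes the secreted matrix protein reelin, had 38.9 CPM in clone 1 and 46.1 in parental cells against 2.22 and 1.29 (4.47, SE 0.43). For AOX1 and RELN it was clones 5 and 6 that lay away from the parental level. GAGE1 and GAGE2A, cancer-testis genes on the X chromosome, were at 15.6 and 24 CPM in clone 1 and under 1 in both other clones. Copies of the GAGE family are nearly identical, so the division of reads between them is uncertain.

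Among the lower genes ZNF626 (ENSG00000188171, chromosome 19 from 20620061 to 20661596), a zinc finger gene, had no count in clone 1. It had 107 counts in parental cells, 1074 under the clone 5 label and 347 in clone 6. Against a floor of 3 counts clone 1 was at least 385.2-fold lower than the library labelled clone 5 and at least 134.6-fold lower than clone 6. LAMC3, a laminin gamma chain, had 8.86 CPM in parental cells, 0.0349 in clone 1, 26.9 under the clone 5 label and 19.3 in clone 6 (log2 fold change -9.32, SE 0.57). CYBA (ENSG00000051523, chromosome 16 from 88643283 to 88651152) encodes p22phox, the membrane subunit of NADPH oxidases. It had 45.9 CPM in parental cells, 0.262 in clone 1, 85.3 under the clone 5 label and 82.8 in clone 6 (-8.32, SE 0.26). CYBA mRNA was thus almost absent from clone 1 alone, and the other clones were within 1 of the parental level on the log2 scale.

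GTSF1, a factor of the piRNA pathway, had 0.0785 CPM in clone 1, 3.74 in parental cells, 24.1 and 13. PALM, a membrane phosphoprotein gene, had 0.0959 CPM in clone 1, 2.3 in parental cells, 11.1 and 17.6. CPPED1, a phosphatase gene, had 0.174 CPM in clone 1, 2.26 in parental cells, 16.6 and 21.4. HAVCR1, which encodes KIM-1, had 0.183 CPM in clone 1, 3.24 in parental cells, 17 and 18.2. In all 4 genes the parental level lay between a near-silent clone 1 and higher clones 5 and 6. HKR1, ZNF208 and ZNF93, the other genes with the widest gap, are zinc finger genes of chromosome 19.

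Genes of DNA replication and mitosis were the list with the highest share of higher genes. Of 40 listed, 39 passed 10 CPM, 22 (56.4%) were higher in clone 1 than in both and none was lower, against 4.94% and 5.67% of all genes. The median log2 difference of the list was 1.2, with 1.27 against the clone 5 label and 1.17 against clone 6, where all genes had 0.12. CDC20, the activator of the anaphase-promoting complex, had 47 CPM in parental cells, 722.1 in clone 1, 95.6 under the clone 5 label and 90.4 in clone 6 (log2 fold change 2.96, SE 0.23). CCNB1, the mitotic cyclin B1, had 144.4, 1035.5, 149.7 and 205.9 CPM in the same order (2.54, SE 0.31). PLK1, the mitotic polo-like kinase, had 63.2, 378.9, 67.8 and 74.7 CPM (2.41, SE 0.23). In these 3 genes clone 1 was far above all other libraries, and clones 5 and 6 were close to each other. In bulk RNA, more cells in mitosis and more of these mRNAs per cell cannot be told apart.

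KIF20A, a kinesin of cytokinesis, had 493.8 CPM in clone 1 against 24.3 in parental cells, 86.1 and 100.3. TOP2A, the topoisomerase of chromosome condensation, had 948.4 CPM in clone 1 against 151.8, 234.7 and 252. MKI67, the proliferation marker Ki-67, had 369.2 CPM in clone 1 against 59.8, 145 and 139.1. The 22 genes were mostly mitotic and included RRM1, RRM2 and TYMS of nucleotide synthesis. None of the minichromosome maintenance genes MCM2 to MCM7 was past the fold, and MCM3 had 194.9 CPM in clone 1, 153.3 in parental cells, 211.2 and 252.1. PCNA, the sliding clamp of replication, had 220 CPM in clone 1 against 74.3, 159.8 and 169.5, also short of the fold. On 12 of the 22 genes both other clones lay within 1 of the parental level and on none did clone 1 alone. None of the 14 measured G1 cyclins and CDK inhibitors was past the fold (median -0.02).

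Promoter sequences of 2 of these genes are shown because they hold a short motif known from mitotic genes. The letters TTTGAA, read on both strands and the core of the cell cycle homology region, were searched in the 250 bases before the RefSeq gene start (GRCh38.p14). They occurred in 17.9% of the 403 higher genes with a promoter in the table, 9.62% of the 395 lower genes, 8.17% of the 8265 genes at 10 CPM with one and 13.3% of all 35116 promoters. Among the mitotic and replication genes 10 of 32 held them (31.2%). Capitals mark the letters on either strand, at 178 and 65 bases before the start of CDC20 (chr1:43358731-43358980, plus strand) and 29 bases before the start of PLK1 (chr16:23678639-23678888, plus strand).
CDC20: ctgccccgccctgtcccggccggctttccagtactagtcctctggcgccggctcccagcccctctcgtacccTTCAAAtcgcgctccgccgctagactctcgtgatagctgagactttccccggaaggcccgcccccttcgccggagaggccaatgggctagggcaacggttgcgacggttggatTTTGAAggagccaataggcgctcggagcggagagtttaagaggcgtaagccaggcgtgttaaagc
PLK1: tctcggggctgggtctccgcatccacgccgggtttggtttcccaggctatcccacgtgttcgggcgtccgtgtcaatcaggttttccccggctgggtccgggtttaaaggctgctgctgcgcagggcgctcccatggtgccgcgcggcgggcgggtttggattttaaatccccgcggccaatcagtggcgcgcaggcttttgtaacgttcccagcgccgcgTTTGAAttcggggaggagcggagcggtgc
A match is a description of the letters in the window and not a measured binding site.

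Enzymes of cholesterol synthesis formed a similar group. All 31 listed genes of sterol and fatty acid synthesis were measured, 14 (45.2%) were higher in clone 1 than in both and none was lower, and the median log2 difference was 1.03. FDPS, which makes farnesyl diphosphate, had 68.2 CPM in parental cells, 420.8 in clone 1, 134.6 under the clone 5 label and 140.2 in clone 6 (log2 fold change 1.61, SE 0.22). EBP, a sterol isomerase, had 26.2, 200.7, 67 and 60.3 CPM in that order (1.66, SE 0.23). DHCR7, the last reductase of the pathway, had 102.4, 673.7, 249.2 and 211.2 CPM (1.55, SE 0.25). The order was the same in each, with the parental library lowest, clones 5 and 6 between, and clone 1 highest. The median of the list lay 1.74 above the parental library in clone 1 and 0.75 above it in the other clones. The regulators SREBF1 and SREBF2 were not past the fold, SREBF1 with 255.3 CPM in clone 1 against 159.4 in parental cells, 219.9 and 245.6. The letters TCACNCCAC, of the sterol regulatory element type, occurred on either strand in 1 of 24 promoters of the list (4.17%) and in 0.883% of all.

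**Figure D2:**
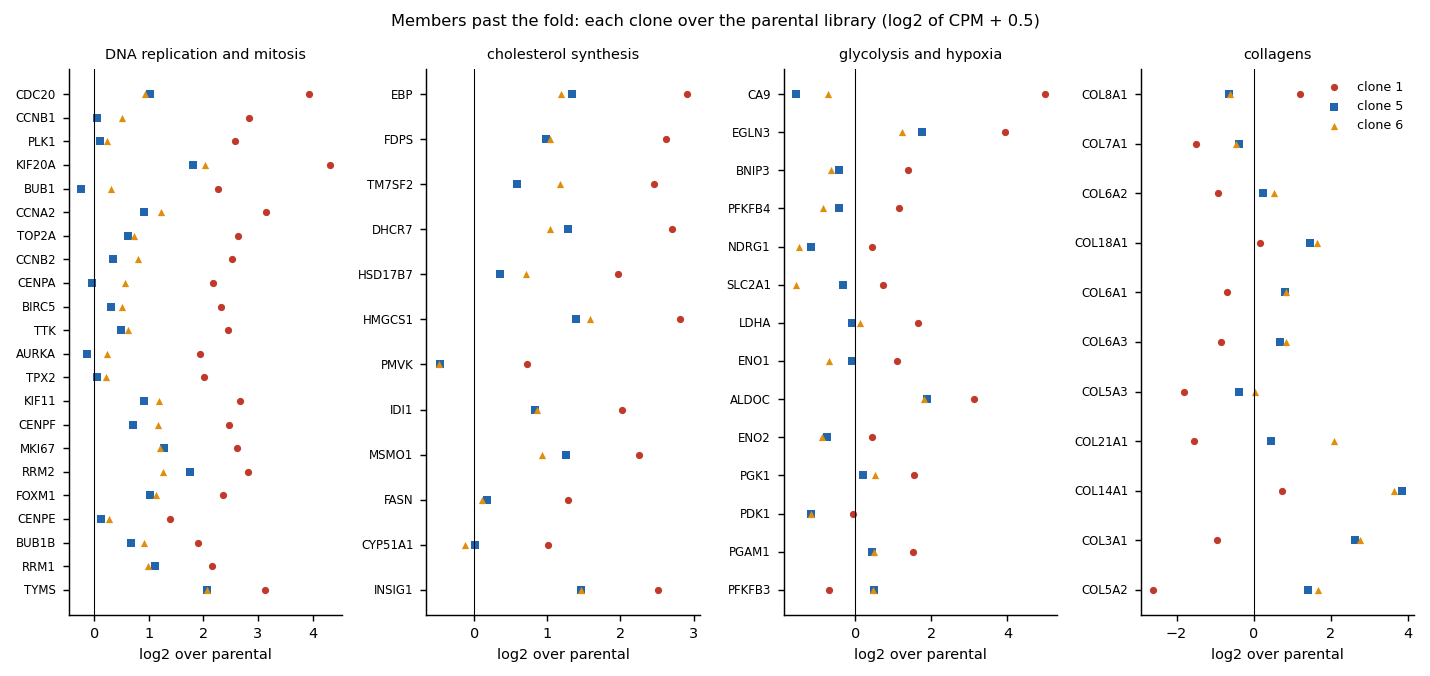
Log2 of CPM + 0.5 in each clone over the parental library for members past the fold of 4 lists (1 gene per line, 1 point per clone, no error bars because each clone has 1 library). Only members past the fold against both clones are drawn, so clone 1 lies outside clones 5 and 6 by that choice. Clone 1 is to their right in all 22 replication and mitosis genes and all 12 cholesterol genes drawn. It is to their left in 10 of 11 collagens.

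Glycolytic and hypoxia-induced genes past the fold differed in the same direction, with 1 exception. Of 31 listed, 30 passed 10 CPM, 13 (43.3%) were higher in clone 1 and 1 was lower, with a median of 0.95. LDHA, the lactate dehydrogenase of anaerobic glycolysis, had 979.8 CPM in parental cells, 3069.1 in clone 1, 919.4 under the clone 5 label and 1064.6 in clone 6. EGLN3, the hypoxia-induced prolyl hydroxylase, had 9.08, 146, 31.7 and 21.8 CPM in that order (log2 fold change 2.45, SE 0.32). BNIP3, a hypoxia-induced gene of mitophagy, had 46.9, 124.4, 34.6 and 30.1 CPM (1.94, SE 0.23). Clone 1 was the highest library in each. VEGFA, another hypoxia target, had 251.3 CPM in clone 1, 205.1 and 261.6 in the other clones and 1216.6 in parental cells, so it did not set clone 1 apart. PFKFB3, which makes the activator of phosphofructokinase, was the lower gene, with 61.2 CPM in clone 1 against 98.4 in parental cells, 138.1 and 137.2. Against parental cells the median of the list was 0.82 in clone 1 and -0.31 in the other clones.

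The promoter of CA9 is shown because CA9 had the widest gap of this list. The letters ACGTG, the core of the hypoxia response element on either strand, occurred in 11 of 26 promoters of the list (42.3%), in 24.3% of genes at 10 CPM and in 18.5% of all promoters. Among the genes past the fold they occurred in 23.6% of the higher and 15.7% of the lower ones. In CA9 (chr9:35673678-35673927, plus strand) capitals mark them 18 bases before the start, on the minus strand.
CA9: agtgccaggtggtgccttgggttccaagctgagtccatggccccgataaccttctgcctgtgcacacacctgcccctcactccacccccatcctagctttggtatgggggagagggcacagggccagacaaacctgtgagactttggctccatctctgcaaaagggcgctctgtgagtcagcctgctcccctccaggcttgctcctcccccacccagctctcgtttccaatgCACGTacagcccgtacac

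Inflammatory genes were split. Of 36 listed cytokines and chemokines 29 were tested, 10 passed 10 CPM, 4 were higher in clone 1 than in both and 1 was lower. CXCL8, the neutrophil-attracting interleukin-8, had 257 CPM in parental cells, 43.8 in clone 1, 2.55 under the clone 5 label and 1.68 in clone 6 (log2 fold change 4.37, SE 0.37). CXCL2, a chemokine of the same receptor, had 130.4, 45.4, 5.46 and 7.49 CPM (2.81, SE 0.32). For both, every clone was below the parental library and clone 1 was nearest to it. CXCL11, an interferon-type chemokine, had 10.2 CPM in clone 1 and 6.68 in parental cells against 1.76 and 0.416. CXCL12, the ligand of CXCR4, ran the other way, with 31.5 CPM in parental cells, 205.3 in clone 1, 768.3 under the clone 5 label and 1167.7 in clone 6 (-2.24, SE 0.36).

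Of 28 NF-kappaB subunits, inhibitors and targets 20 passed 10 CPM, 4 were higher and 1 was lower, with a median of 0.59. SAA1, an acute-phase protein gene, had 65.6 CPM in parental cells, 20.8 in clone 1, 1.87 and 0.7 in the others (log2 fold change 4.02, SE 0.68). BIRC3, an inhibitor of apoptosis, had 33.8, 13.9, 3.34 and 3.11 CPM (2.1, SE 0.34). SOD2, the mitochondrial superoxide dismutase, had 2119.7, 279.2, 107.9 and 130.1 CPM (1.23, SE 0.25). Again clone 1 was below the parental library and the other clones were lower still. VCAM1, an adhesion molecule of leukocyte binding, was the exception, with 67.8 CPM in parental cells, 13.6 in clone 1, 152.2 and 165.5 in the others (-3.54, SE 0.22). LCN2, named by the study, was below 10 CPM in every clone, with 0.253 CPM in clone 1, 0.0188 and 0.0203 in the others and 19.7 in parental cells.

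Promoters of CXCL8 and CXCL2 are shown because they had the widest gaps to the nearer clone among the higher cytokines. The letters GGNNTTTCC, of the NF-kappaB type, occurred on either strand in 5 of the 6 inflammatory genes with a promoter in the table (83.3%) and in 5.48% of all promoters. TGANTCA, of the AP-1 type, occurred in 2 of those 6 and in 6.57% of all. Over all genes past the fold neither stood out, with GGNNTTTCC in 5.46% of the higher and 6.08% of the lower genes and TGANTCA in 4.22% and 4.3%. In CXCL8 (chr4:73740319-73740568, plus strand) capitals mark TGANTCA at 137 and GGNNTTTCC at 91 bases before the start. In CXCL2 (chr4:74099196-74099445, minus strand) they mark GGNNTTTCC at 77 and 53 bases before it.
CXCL8: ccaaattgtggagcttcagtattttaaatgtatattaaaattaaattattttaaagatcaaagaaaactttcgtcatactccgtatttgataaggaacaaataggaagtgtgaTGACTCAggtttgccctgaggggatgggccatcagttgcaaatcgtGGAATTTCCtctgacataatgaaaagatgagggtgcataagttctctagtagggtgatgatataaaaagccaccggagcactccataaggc
CXCL2: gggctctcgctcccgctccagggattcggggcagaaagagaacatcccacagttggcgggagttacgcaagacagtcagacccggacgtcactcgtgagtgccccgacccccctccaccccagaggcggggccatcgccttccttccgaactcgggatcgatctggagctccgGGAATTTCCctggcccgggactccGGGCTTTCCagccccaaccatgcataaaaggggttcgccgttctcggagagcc

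Immediate-early genes, which answer growth signals within minutes and include the AP-1 subunits, differed mostly upwards where they passed the fold. Of 32 listed, 27 passed 10 CPM, 9 (33.3%) were higher and 1 was lower, with a median of 0.71. FOS, the AP-1 partner of c-Jun, had 36.5 CPM in parental cells, 1093.6 in clone 1, 102.4 under the clone 5 label and 389.7 in clone 6 (log2 fold change 2.15, SE 0.84). FOSB had 3.77, 159.2, 14.8 and 39.7 CPM (2.55, SE 0.64), and EGR1, a zinc finger factor of the same response, 65, 1169.2, 95.3 and 359.6 (2.36, SE 0.84). Clones 5 and 6 differed from each other on these 3 genes, clone 6 being the higher, and the SE was wide for that reason. JUN itself had 107.8 CPM in parental cells, 398.3 in clone 1, 234.4 and 328.2 in the others and was not past the fold. MYC was near the parental level in clone 1, at 672.2 against 604.4 CPM, and lower in the others, at 129 and 220 (1.95, SE 0.4). PHLDA1 was the lower gene, with 82.3 CPM in clone 1 against 339.6, 222.1 and 200.8. FOS was the only one of the 7 genes named by the study and measured at 10 CPM that was past the fold. TGFB1, NOTCH1, CREB3 and XBP1 had log2 fold changes of -0.31, -0.5, 0.58 and 0.53. GLI1, a Hedgehog effector, had 6.94 CPM in clone 1, between 5.66 under the clone 5 label and 21.8 in clone 6, and its log2 fold change of -0.99 turned to 0.29 without clone 6.

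**Figure D3:**
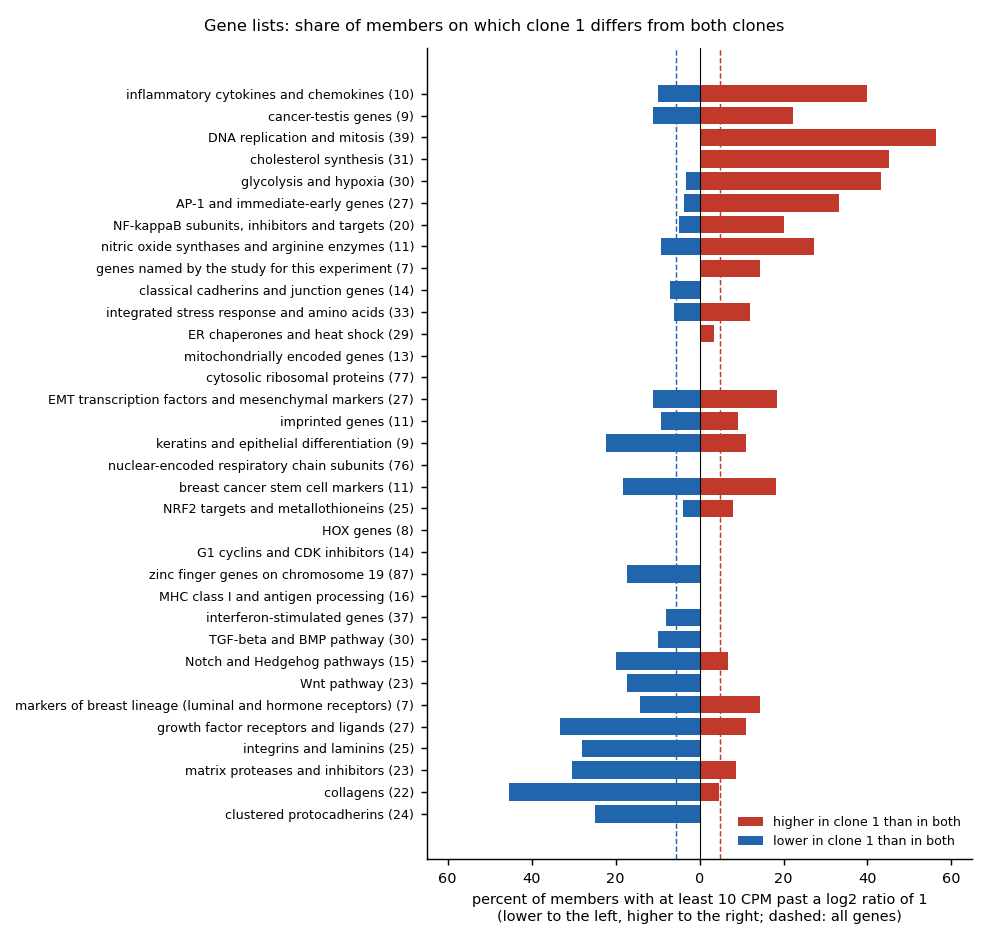
Share of each list's members with at least 10 CPM (number in brackets) that were higher (red, to the right) or lower (blue, to the left) in clone 1 than in both other clones by over 1 on the log2 scale, in percent, for lists with 5 or more such members. Dashed lines give the share over all genes, 4.94% higher and 5.67% lower. Lists are ordered by their median log2 difference.

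Collagens stood at the other end. Of 30 listed 22 passed 10 CPM, 10 (45.5%) were lower in clone 1 than in both and 1 was higher, and the median log2 difference was -1.25. COL3A1 (ENSG00000168542, chromosome 2 from 188974320 to 189012746), a fibrillar collagen, had 796.1 CPM in parental cells, 409.8 in clone 1, 4870.8 under the clone 5 label and 5389.1 in clone 6 (log2 fold change -3.65, SE 0.28). COL5A2, its fibril partner, had 189.6, 30.8, 503.4 and 607.4 CPM (-4.17, SE 0.26). COL14A1, a fibril-associated collagen, had 3.41, 6.02, 55.6 and 48.1 CPM (-3.11, SE 0.23). COL3A1 and COL14A1 were thus near the parental level in clone 1 and high in the other clones, whereas COL5A2 was low in clone 1 and high in the others. The 3 chains of collagen VI were all lower, COL6A1 at 1217.2 CPM in clone 1 against 1965, 3449.4 and 3496.9. COL8A1 was the higher one, with 250.3 CPM in clone 1 against 109.1, 69.8 and 71.1. COL1A1 had 275.5 CPM in clone 1, 713 in parental cells, 533.8 under the clone 5 label and 2647.3 in clone 6, so clones 5 and 6 were apart and the gene did not pass the fold.

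Other matrix genes ran with the collagens. Of 31 integrin and laminin subunits 25 passed 10 CPM, 7 (28.0%) were lower in clone 1 and none was higher (median -0.89). LAMA4, a laminin alpha chain, had 7.1 CPM in parental cells, 2.09 in clone 1, 23.1 and 46.6 in the others. ITGA1, a collagen receptor subunit, had 37.7, 21.7, 91.5 and 71.9 CPM. Of 38 matrix proteases and inhibitors 23 passed 10 CPM, 7 (30.4%) were lower and 2 higher (median -1.03). ADAMTS7, a metalloprotease, had 19.3 CPM in parental cells, 15.9 in clone 1, 235.4 and 175.1 in the others (log2 fold change -3.69, SE 0.29). MMP2, a gelatinase, had 585.6 CPM in clone 1 and 701.5 in parental cells against 2474.4 and 1523.1. For both proteases clone 1 was near the parental cells. ADAMTS2, the procollagen N-proteinase, was higher, with 112.8 CPM in clone 1 against 40.6, 14 and 8.11.

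Growth factor receptors, ligands and binding proteins past the fold were mostly lower. Of 47 listed 27 passed 10 CPM, 9 (33.3%) were lower and 3 (11.1%) higher, with a median of -0.64. The median was -0.77 against the clone 5 label but -0.06 against clone 6, where all genes had 0.14 and 0.11. The list as a whole was thus little shifted against clone 6. IGFBP5, a binding protein of insulin-like growth factors, had 42.3 CPM in parental cells, 84.5 in clone 1, 1577.7 under the clone 5 label and 1175.1 in clone 6 (log2 fold change -4.03, SE 0.31). KITLG, the ligand of KIT, had 19, 57.5, 220.2 and 285.4 CPM. PDGFRB, the receptor of platelet-derived growth factor, had 180.8, 66.4, 563.3 and 563.3 CPM (-3.08, SE 0.23). Clone 1 was nearer than the other clones to the parental level for IGFBP5 and KITLG, while for PDGFRB the parental level lay between the sides. EREG, an EGF receptor ligand, was higher, with 34.4 CPM in clone 1 against 7.47 and 6.23 and 159.3 in parental cells.

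Few genes of the Wnt, Notch, Hedgehog, TGF-beta and BMP lists were past the fold, and these were mostly lower. Over all genes 5.67% were lower and 4.94% higher, and counts this small allow no conclusion on a pathway. List medians against the clone 5 label and clone 6 were -0.37 and -0.07 for Wnt and -0.16 and -0.27 for Notch and Hedgehog. They were -0.26 and -0.1 for TGF-beta and BMP and 0.14 and 0.11 over all genes. Of 23 Wnt genes at 10 CPM 4 (17.4%) were lower and none higher, among them TCF7L1, a repressor of Wnt targets, with 17.1 CPM in parental cells, 9.07 in clone 1, 66 and 62.7 in the others (log2 fold change -2.83, SE 0.22). Of 15 Notch and Hedgehog genes 3 were lower and 1 higher. NOTCH3 had 170 CPM in parental cells, 10.2 in clone 1, 84.3 and 49.5 in the others (-2.71, SE 0.4), and HES1, a Notch target, was higher at 165.8 CPM against 99.1, 50.2 and 64.1. Of 30 TGF-beta and BMP genes 3 (10.0%) were lower and none higher, including BMP1 and BAMBI. Of 27 EMT factors and mesenchymal markers 5 (18.5%) were higher and 3 (11.1%) lower. NT5E, the surface enzyme CD73, had 21.2 CPM in clone 1 and 22 in parental cells against 2.44 and 0.71 (3.75, SE 0.81), and TNC, the matrix protein tenascin C, had 533.5 CPM in clone 1 against 158.6, 229 and 126.2. SNAI1, an EMT transcription factor, was lower at 13.5 CPM in clone 1 and 11.8 in parental cells against 30.5 and 31.5.

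Zinc finger genes of chromosome 19, most of them KRAB repressors that lie in clusters of gene copies, were lower in clone 1 in some clusters. With no CPM minimum 237 were tested, 68 (28.7%) were lower in clone 1 than in both by over 1 on the log2 scale and 1 was higher. The same limit gave 13.3% lower and 6.89% higher over all 22511 genes, and 165 of the 934 other protein-coding genes of chromosome 19 were lower (17.7%). With the minimum of 10 CPM, 15 of 87 (17.2%) were lower and none higher. Clone 1 was below the parental library by over 1 in 62 of the 68, and in 24 the other clones were within 1 of it. Between 12 and 14 Mb 11 of 15 were lower (median -6.11), between 20 and 22 Mb 13 of 16 (median -5.69), and between 18 and 20 Mb 4 of 6 (median -5.88). In contrast, none of 16 was lower between 44 and 46 Mb (median -0.01) and none of 10 between 42 and 44 Mb (median 0.28). Other clusters were mixed, with 13 of 26 lower between 36 and 38 Mb, 12 of 33 between 52 and 54 Mb and 8 of 39 between 56 and 58 Mb. In the bin from 12 to 14 Mb the 41 other protein-coding genes had a median of 0.0, and 4 were lower and 2 higher. The other genes also stayed near 0 between 18 and 20 Mb (9 of 52 lower, median -0.05). Elsewhere they fell more than the zinc finger genes, with 8 of 17 lower between 56 and 58 Mb (median -1.12). Between 50 and 52 Mb 14 of 40 other genes were lower (median -0.86) and none of 7 zinc finger genes. Between 8 and 10 Mb these were 9 of 20 (median -0.73) and 1 of 13.

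In 14 zinc finger genes clone 1 had 3 counts or fewer and both other clones more than 100. ZNF44, named after its values were seen, had 608 counts in parental cells, 3 in clone 1, 690 under the clone 5 label and 735 in clone 6. ZNF347 had 9.31 CPM in parental cells, 0.157 in clone 1, 11.8 and 14.7 in the others (log2 fold change -6.39, SE 0.39). ZNF93 had 2.14, 0.0698, 6.76 and 10.3 CPM (-6.91, SE 0.54). ZNF347 was thus near the parental level in clones 5 and 6, while ZNF93 in those clones was above it. Members of these clusters are similar in sequence, so reads may be divided between them with some uncertainty.

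Promoters of ZNF93 and ZNF347 are shown, from 2 of the clusters, with each CG dinucleotide in capitals. The 59 lower zinc finger genes with a promoter in the table had a median of 13 CG in 250 bases (quartiles 9 and 19). The 142 within 1 of clones 5 and 6 had a median of 17 (quartiles 12.2 and 21), so the ranges overlapped. The median was 11 over all promoters, 22 over genes at 10 CPM and 18 over the lower genes past the fold. ZNF93 (chr19:19900696-19900945, plus strand) holds 8 and ZNF347 (chr19:53159054-53159303, minus strand) 19. DNA methylation was not measured.
ZNF93: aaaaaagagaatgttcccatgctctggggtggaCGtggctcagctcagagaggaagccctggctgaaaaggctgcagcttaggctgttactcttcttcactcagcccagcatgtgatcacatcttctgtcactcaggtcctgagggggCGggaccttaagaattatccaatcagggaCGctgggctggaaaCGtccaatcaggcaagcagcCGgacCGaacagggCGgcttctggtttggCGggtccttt
ZNF347: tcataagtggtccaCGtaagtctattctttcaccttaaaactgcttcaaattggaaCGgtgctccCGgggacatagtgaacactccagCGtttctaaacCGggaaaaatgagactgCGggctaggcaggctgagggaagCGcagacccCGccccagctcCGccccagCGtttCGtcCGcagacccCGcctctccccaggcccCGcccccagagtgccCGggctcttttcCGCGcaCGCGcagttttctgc

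**Figure D4:**
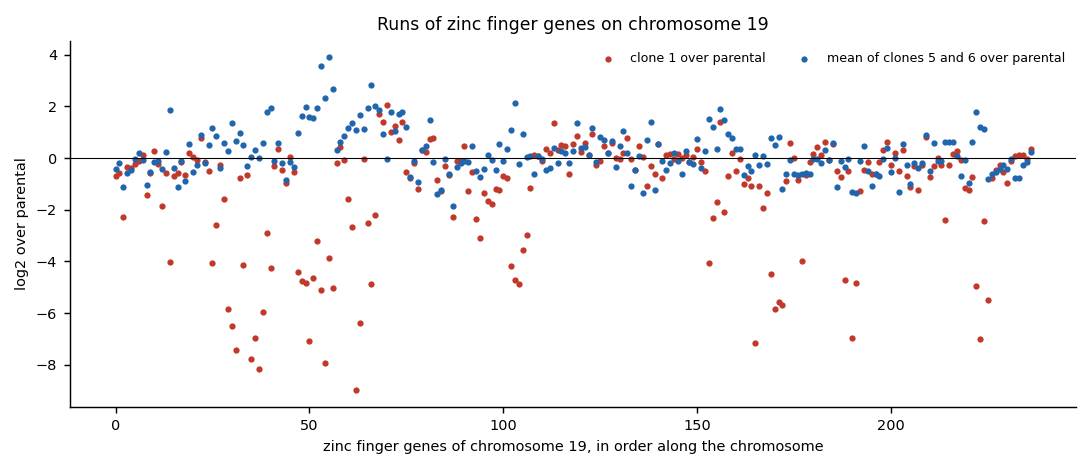
Log2 over the parental library of 237 zinc finger genes of chromosome 19, in their order along the chromosome, for clone 1 (red) and for the mean log2 of clones 5 and 6 (blue), 1 point per gene. Clone 1 drops in runs of neighbouring genes in which most points of clones 5 and 6 lie near or above the parental level. Genes of a run share a chromosome region and are not independent.

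Other gene families with near-copies also differed. Of 24 clustered protocadherins at 10 CPM, adhesion genes of chromosome 5, 6 were lower in clone 1 and none higher. The median log2 difference was -0.64 to the clone 5 label and -2.61 to clone 6, so clones 5 and 6 also differed from each other. PCDHB15 had 8.51 CPM in parental cells, 2.22 in clone 1, 20.2 and 34.1 in the others. Of 9 keratin and epithelial genes at 10 CPM, 2 were lower, the near-copies KRT81 and KRT86 at 0.846 and 2.18 CPM in clone 1, and SFN, the checkpoint protein 14-3-3 sigma, was higher at 277.4 CPM against 25.1, 59.4 and 32.2. H19, the imprinted noncoding RNA, had 28.2 CPM in parental cells, 815.5 in clone 1, 36.4 and 59.9 in the others (log2 fold change 4.08, SE 0.38). SNRPN was the other of 11 imprinted genes at 10 CPM past the fold (9.09% in each direction), lower at 23.1 CPM against 70.1, 80.3 and 60.5. Of the 11 stem cell markers at 10 CPM, MYC and ABCG2 were higher (18.2%) and SOX4 and NES lower (18.2%). Of 9 cancer-testis genes at 10 CPM, 3 were past the fold, 22.2% higher and 11.1% lower. Besides GAGE1 these were CTAG2, lower at 1.03 CPM in clone 1 against 19.2, 28.1 and 92.2, and PAGE1, higher at 93 CPM against 10.7, 18.4 and 0.254.

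Among enzymes and transporters of the nitric oxide pathway 11 of 19 passed 10 CPM, 3 (27.3%) were higher and 1 lower. ARG2, the mitochondrial arginase, had 12.9 CPM in parental cells, 29.5 in clone 1, 6.85 under the clone 5 label and 6.91 in clone 6 (log2 fold change 2.1, SE 0.27). The arginine transporter SLC7A2 had 55.6, 11.9, 2.3 and 0.649 CPM and SLC7A1 393.3, 86.6, 42.2 and 30.7, so clone 1 was nearer to the parental level for both. GUCY1A1, a subunit of the nitric oxide receptor, was lower at 0.227 CPM in clone 1 against 2.42, 20.9 and 3.59. Of 33 genes of the integrated stress response and amino acid metabolism 4 (12.1%) were higher and 2 lower. PSAT1, of serine synthesis, had 562.9 CPM in parental cells, 87.8 in clone 1, 37.7 and 38, and NUPR1, a stress-induced factor, 257.5, 9.34, 47.1 and 57.4. On both genes every clone was far below the parental library, and clone 1 was the nearest for PSAT1 and the furthest for NUPR1.

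Several lists held few genes past the fold or none, where 4.94% of all genes were higher and 5.67% lower. Of 37 interferon-stimulated genes 3 (8.11%) were lower, MX1, OAS1 and STAT2. HSP90AA1 was higher, as 1 of 29 ER chaperones and heat shock proteins (3.45%). Of 25 NRF2 targets and metallothioneins 2 (8.0%) were higher, MT1E and MT2A, and 1 (4.0%) was lower, AKR1B10. CDH6 was lower, as 1 of 14 cadherins and junction genes (7.14%). Among breast lineage markers FOXA1 was lower and MUC1 higher of 7 (14.3% in each direction). No gene was past the fold among 16 of MHC class I and antigen processing, 8 HOX genes, 3 histone genes, 2 blood and 2 endothelial markers at 10 CPM. With 10.6% past the fold over all genes, lists this short can hold none, so little can be read from them. Nor was any gene past the fold among the 76 nuclear-encoded respiratory chain subunits (median 0.15), the 77 cytosolic ribosomal protein genes (median 0.32) and the 13 mitochondrially encoded genes (median 0.43). Against clone 6 alone these medians were -0.05, 0.08 and 0.25, and against the clone 5 label 0.32, 0.53 and 0.56.

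Small shifts ran along whole chromosomes. Genes at 10 CPM were cut into 196 blocks of 50 neighbours, and the block median of clone 1 minus the mean log2 of the other clones ranged from -0.5 to 0.65. All 7 blocks of chromosome 8 were below 0, between -0.5 and -0.28, all 11 of chromosome 12 between -0.48 and -0.12, and all 6 of chromosome 15 between -0.33 and -0.23. The 2 blocks of chromosome 21 were also below 0, at -0.22 and -0.07. The median gene lay at 0.12, and at -0.01 with library size, so the sign of a small block median depends on the scaling. On chromosome 8 38 of 353 genes (10.8%) were lower past the fold, on chromosome 12 69 of 583 (11.8%) and on chromosome 15 31 of 342 (9.06%), against 5.67% overall. Every block of chromosomes 1, 2, 3, 4, 7, 10, 11, 14, 17, 18, 19, 20, 22 and X was above 0. Chromosome 14 had the highest median, 0.39, but there clone 5 was 0.38 below clone 6. Clones 5 and 6 themselves had block medians from -0.75 to 0.46, and 14 blocks were over 0.4 from 0 in that contrast as in that of clone 1. Over the parental library, chromosome 8 had a median of -0.56 in clone 1 and -0.16 in the mean of the other clones. Genes of a block are not independent, and DNA copy number was not measured.

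**Figure D5:**
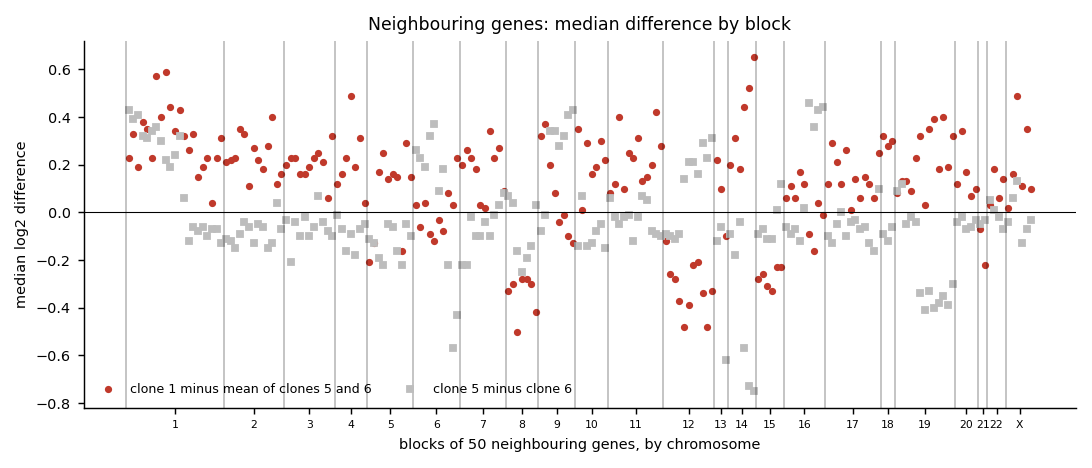
Median log2 difference in 196 blocks of 50 neighbouring genes with at least 10 CPM, by chromosome, for clone 1 minus the mean of clones 5 and 6 (red circles) and for clone 5 minus clone 6 (grey squares). The red points lie below 0 along all of chromosomes 8, 12, 15 and 21, and above 0 along all of others, such as 1 and 2. The grey squares leave 0 along stretches such as on chromosome 14, where clone 5 minus clone 6 reaches -0.75.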

How the data were processed

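RNA-sequencing counts of 4 SUM159 libraries were used: 1 of parental cells and 1 each of NOS2KO clones 1, 5 and 6. Oligo(dT) beads enriched the mRNA, and a NEBNext Ultra II kit served for the libraries. The values the authors deposited are unnormalized whole counts of reads per gene. The submitters' processing notes name bcl2fastq 2.17, Trimmomatic 0.36, STAR 2.5.2b, featureCounts of Subread 1.5.2, DESeq2 and the build GRCh38. The strand setting is not given in the sources used here, so overlapping and antisense genes cannot be told apart. GENCODE 29 gave symbols for 56898 of 57500 identifiers, with unchanged coordinates for 54784.

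Counts were scaled by TMM in edgeR 4.0.16 (R 4.3.3), over the 22511 genes kept by filterByExpr. The fold comparison required 10 CPM in a clone and a log2 ratio over 1 to each of the other clones, with a prior count of 0.5. Near the parental level means within 1 on the log2 scale. Clone 1 was then set against clones 5 and 6 with glmQLFit and glmQLFTest, with 1 residual degree of freedom and Benjamini-Hochberg adjustment. This assumes that clone 1 varies like the other clones, whose common dispersion was 0.183. The clones were grouped with earlier results of these data known, in which clones 5 and 6 were alike, so p-values are too small and are descriptions. The members and the 37 gene lists were also chosen with earlier results known. Log2 differences of lists and blocks are clone 1 minus the mean log2 of clones 5 and 6. Intervals are exact Clopper-Pearson at 95%, with a floor of 3 counts, and cover counting error only. Each clone has 1 library, so spread within a clone was not measured.

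Genes named were the 10 protein-coding genes with the widest gap to the nearer clone in each direction, up to 4 per list and direction, the genes named by the study and NOS2. Other members were named after their values were seen. The AP-1-type and NF-kappaB-type letters were set at the outset, and the other motifs and the CG counts were added after values were seen. Promoters are RefSeq sequences matched by gene identifier or symbol, with the first entry of a gene used. Alternatives were other scalings, filters, fold limits, DESeq2 1.42.0, the bias-adjusted and robust fits and leaving out clone 5 or 6. The tests and intervals were tested on simulated data. Tables and plots were made with scipy 1.17.1, numpy 2.4.6, matplotlib 3.10.9 and pandas 2.3.3 under Python 3.11.15. Some genes are not reported here by name.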

Additional observations from a re-analysis of the deposited data

How the results depend on the processing

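With 1 library per clone, the depth limits genes under about 3 counts, and the spread within a clone is unknown. No paired analysis was possible because the groups share no replicate numbers. RLE, upper quartile and library size scaling kept the counts over all genes within 1.5 times. At 1 CPM in a clone 857 genes were higher and 1489 lower, with clone 1 near the parental level on 463 and clones 5 and 6 on 637. At 30 CPM 328 were lower and clone 1 was near on 140. With a log2 ratio over 2, 102 were higher and 229 lower, with clone 1 near on 80 and the others on 59, the reverse of the order at 1. Without clone 5 or clone 6, which asks for 1 ratio in place of 2, 813 to 846 genes were higher and 796 to 804 lower, with clone 1 near on 429 to 438 and the other clone on 503 to 505. In edgeR without a filter beyond 1 count, 303 were higher and 457 lower at an adjusted p under 0.05, and in DESeq2 832 and 1269. The cause was not tested. Of the 128 named genes, 10 moved in value without clone 5 and 6 without clone 6 by more than the spread, and the direction turned with the clone left out for NOS2 (log2 -2.49 to 1.05, positive without clone 5) and GLI1 (-1.65 to 0.29, positive without clone 6). Medians of the lists kept their sign under the 4 scalings except for G1 cyclins, HOX genes, NRF2 targets and stem cell markers.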
